A study of Mus musculus with 8 samples.

Results

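The C/EBP family was examined in 32Dcl3 cells. This mouse line of myeloid progenitors depends on interleukin-3 (IL-3) for growth, and granulocyte colony-stimulating factor (G-CSF) turns it toward neutrophils. Members were all probe sets whose platform annotation gave 1 gene symbol, equal to Cebpa, Cebpb, Cebpd, Cebpe, Cebpg or Cebpz. The rule found 8 of 45037 probe sets, from 4 of the 6 genes: 1 for Cebpa, 2 for Cebpb, 2 for Cebpd and 3 for Cebpg. Cebpe and Cebpz are not analysed here. The cells carried either the vector pMYs-FLAG-ASXL1-MT-IG, which expresses FLAG-tagged mutant ASXL1 (ASXL1-MT), or the empty vector pMYs-IG (mock). RNA of each culture was measured in IL-3 and after 2, 6 and 24 h under G-CSF on Affymetrix mouse arrays, 1 array per condition and 8 in all. The labels give neither the ASXL1 mutation, the species of its cDNA and the G-CSF dose, nor whether IL-3 was withdrawn or the time points were separate cultures. The comparisons address how the family changes under G-CSF and whether ASXL1-MT alters it.

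C/EBP factors are basic leucine zipper proteins that bind DNA as dimers, with each other or with related factors. C/EBP alpha is needed for the step from myeloid progenitors to granulocyte-committed cells and restrains cell division. C/EBP beta drives granulocyte production under infection and cytokine stress, C/EBP delta is a G-CSF-inducible member that drives acute phase genes, and C/EBP gamma lacks a transactivation domain of its own and can dampen other members. C/EBP epsilon controls late granule genes of neutrophils, and Cebpz encodes a CCAAT-binding factor outside the leucine zipper family.

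Values are log2 expression of a probe set minus its own median over the 8 arrays, so they compare arrays within a probe set and not probe sets with each other. The level before centring was estimated from the rounding of the deposited numbers, which mainly tells whether it lay at 4 to 8 or at 8 to 16 on the log2 scale. All 8 C/EBP probe sets passed the filter, an estimated level of at least 4, with 37327 probe sets of the table. Both of Cebpb, 1423233_at of Cebpd and 1425262_at of Cebpg lay at 8 to 16, and the other 4 at 4 to 8. Of these, 1451639_at of Cebpg had an estimate of 7.97, so its class is uncertain. The median error of the estimate was 0.96 on simulated probe sets. Dim probe sets vary more here: 22265 probe sets at 4 to 8 had a median standard deviation across arrays of 0.803, and 15062 at 8 or above a median of 0.264. Of the myeloid progenitor markers 9 of 11 lay at a level of at least 8, among them Mpo, Elane and Spi1. Kit and Cd34 did not, and 1 of the 11 was below 4. Of all 45037 probe sets 15062 lay at 8 or above, while each marker was read at its probe set with the highest estimated level. Of the lymphoid markers none of the 4 on the array did, and 3 of these were below 4. Of the other markers at least 8, there were 4 of 7 for eosinophils, basophils and mast cells, 1 of 4 on the array for erythroid cells, 2 of 4 for monocytes and 1 of 4 for fibroblasts. Array medians lay between -0.0378 and 0.0598.

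Every p-value comes from limma, two-sided, fitted across all 37327 probe sets on time point and vector together, with Benjamini-Hochberg adjustment and a call at a false discovery rate (FDR) of 0.05. No condition was replicated, so 1 residual spread per probe set served every comparison in this fit. It measures how far all arrays depart from the sum of a time effect and a vector effect. It is not the spread of the pair of cultures compared. The fit has 3 residual degrees of freedom. In the fit as first given, all probe sets share 1 prior spread. A second fit lets the spread follow the estimated level, and its adjusted p is given as the trended p.

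RefSeq promoter sequences (GRCm38.p6) were given for Cebpa, Cebpb and Cebpg. The 250 bases before each start are shown because Cebpb was called at 24 h and the other 2 genes were not. Capitals mark TATAAA, or TGACGC and its reverse complement GCGTCA, motifs picked after the promoters were read.
Cebpa, chr7:35119043-35119292, plus strand: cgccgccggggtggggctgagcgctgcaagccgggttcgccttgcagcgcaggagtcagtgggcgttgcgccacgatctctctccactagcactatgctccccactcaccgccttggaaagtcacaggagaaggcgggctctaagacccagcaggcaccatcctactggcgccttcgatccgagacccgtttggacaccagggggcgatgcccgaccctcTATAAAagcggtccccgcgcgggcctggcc
Cebpb, chr2:167688665-167688914, plus strand: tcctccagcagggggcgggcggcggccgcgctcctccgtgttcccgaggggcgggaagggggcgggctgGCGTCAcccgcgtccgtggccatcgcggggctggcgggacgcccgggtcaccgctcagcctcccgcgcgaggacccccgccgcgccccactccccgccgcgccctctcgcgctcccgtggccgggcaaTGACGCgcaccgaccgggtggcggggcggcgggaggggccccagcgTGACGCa
Cebpg, chr7:35056567-35056816, minus strand: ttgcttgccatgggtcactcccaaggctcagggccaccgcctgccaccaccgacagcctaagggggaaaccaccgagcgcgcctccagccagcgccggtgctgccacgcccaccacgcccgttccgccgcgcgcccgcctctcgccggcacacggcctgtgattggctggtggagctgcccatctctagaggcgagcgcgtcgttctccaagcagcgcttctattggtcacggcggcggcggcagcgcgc
TATAAA, the TATA box core, began 30 bases upstream of the Cebpa start and is held by 12.4% of 32851 mouse promoter windows of this length, either strand counted. TGACGC or its reverse, resembling part of a cyclic AMP response element, began 181, 53 and 7 bases upstream of the Cebpb start and is held by 6.12% of the windows. The other motifs searched on both strands were TTCNNNGAA (7.02% of windows), the STAT motif, its stricter form TTCCNGGAA (0.913%), which the first contains, TTGCNNAA (9.56%), a C/EBP motif, and TGACGTNA (2.52%), a cyclic AMP response motif. None of these letters stood in the 3 windows. The windows were 66.4% G and C for Cebpa, 81.6% for Cebpb and 70.8% for Cebpg, against a median of 52.4% over all windows.

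Cebpd, the G-CSF-inducible member, had the largest fitted difference from IL-3 among the 8 probe sets. Its brighter probe set, 1423233_at, read -0.83 in IL-3 and -1.09, 0.51 and 1.70 after 2, 6 and 24 h of G-CSF in ASXL1-MT cells. In mock cells the same probe set read -0.51 in IL-3, then -0.83, 0.80 and 1.77. Both cultures were low in IL-3 and at 2 h, higher at 6 h and highest at 24 h. Cebpd rose 5.29-fold at 24 h against IL-3, a log2 difference of 2.40 ± 0.13 (SE), with an adjusted p of 0.0232 and a trended p of 0.00041. At 6 h it rose 2.50-fold, by 1.32 ± 0.13, with an adjusted p of 0.0487 and a trended p of 0.00175. The 6 h call was lost under quantile normalization, where the difference was 1.24 with an adjusted p of 0.0591, and with no filter (0.0875). The rise was seen in both cultures. At 24 h it measured 2.53 in ASXL1-MT cells and 2.27 in mock cells. At 6 h it measured 1.34 in ASXL1-MT cells and 1.31 in mock cells.

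The second Cebpd probe set, 1456605_at, did not follow this course. It lay at an estimated level of 4 to 8 and read -0.22, -3.25, 0.42 and -0.25 in ASXL1-MT cells in the same order, and 0.17, 0.08, 0.68 and -0.08 in mock cells. The ASXL1-MT array at 2 h stood far below the other 7. Its difference at 24 h was -0.14 ± 0.94 (SE, adjusted p 0.946). The mean of the pair gave 1.13 ± 0.49 (SE) at 24 h (adjusted p 0.26) and 0.95 ± 0.49 at 6 h (adjusted p 0.363), so a call for Cebpd rests on the brighter probe set.

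Cebpb, the member tied to cytokine-driven granulocyte production, was higher at 24 h. Its probe set 1418901_at read -0.19, -0.51, 0.14 and 0.74 in ASXL1-MT cells in IL-3 and at 2, 6 and 24 h. In mock cells it read -0.14, -0.46, 0.33 and 0.97. Both cultures were lowest at 2 h and highest at 24 h. It rose 2.03-fold at 24 h, a log2 difference of 1.02 ± 0.12 (SE), with an adjusted p of 0.0314 and a trended p of 0.00153. Scaling affected the call: under quantile normalization the difference was 0.79 with an adjusted p of 0.0569, and with no filter the adjusted p was 0.0588. At 6 h the difference was 0.40 ± 0.12, with an adjusted p of 0.156 and a trended p of 0.0314.

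The other Cebpb probe set, 1427844_a_at, showed the same order in time. It read 0.01, -0.56, 0.02 and 0.38 in ASXL1-MT cells, and -0.11, -0.67, -0.01 and 0.69 in mock cells. Its difference at 24 h was 0.58 ± 0.16 (SE), with an adjusted p of 0.112 and a trended p of 0.0306. At 6 h it was 0.05 ± 0.16 (adjusted p 0.886). The mean of both probe sets gave 0.80 ± 0.15 at 24 h (adjusted p 0.0643). At 2 h both lay below IL-3, by -0.31 ± 0.12 for 1418901_at and -0.57 ± 0.16 for 1427844_a_at, with adjusted p-values of 0.738 and 0.665 and trended p-values of 0.443 and 0.389.

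Cebpa, which drives granulocyte commitment, had 1 probe set, 1418982_at, at a level of 4 to 8. It read 0.36, 0.13, -0.51 and 1.46 in ASXL1-MT cells, and -0.40, -0.73, -0.13 and 0.55 in mock cells. Both cultures were highest at 24 h, but the order of the earlier arrays differed between them. The difference at 24 h against IL-3 was 1.03 ± 0.39 (SE) and missed the threshold (adjusted p 0.189, trended p 0.209). At 2 and 6 h it was -0.28 ± 0.39 and -0.30 ± 0.39, with adjusted p-values of 0.932 and 0.706. The 24 h against 6 h difference was 1.33 ± 0.39 (adjusted p 0.217).

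Cebpg, the member without a transactivation domain, was lowest at 6 h on 3 of 3 probe sets in both cultures. The brightest, 1425262_at, read 0.09, -0.09, -0.48 and 0.20 in ASXL1-MT cells, and 0.21, -0.14, -0.45 and 0.17 in mock cells. Its 6 h difference from IL-3 was -0.62 ± 0.12 (SE), with an adjusted p of 0.0805 and a trended p of 0.00852. At 24 h it was back within 0.03 ± 0.12 of IL-3 (adjusted p 0.897). The other probe sets had 24 h differences of -0.34 ± 0.18 for 1425261_at and -0.23 ± 0.31 for 1451639_at (adjusted p 0.304 and 0.687).

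Probe set 1425261_at of Cebpg read 0.30, 0.14, -0.81 and 0.17 in ASXL1-MT cells, and 0.42, -0.18, -0.77 and -0.14 in mock cells. Its 6 h difference was -1.15 ± 0.18 (SE, adjusted p 0.065, trended p 0.0998). Probe set 1451639_at read 0.26, -0.02, -1.13 and 0.02 in ASXL1-MT cells, and 0.14, 0.06, -0.23 and -0.09 in mock cells. Its 6 h difference was -0.88 ± 0.31 (adjusted p 0.206) and shrank to -0.41 without the ASXL1-MT array at 6 h, which was the low one. With the common prior spread and the filter used here no Cebpg probe set passed at any time, and with the trended spread only 1425262_at did. At 6 h and the common prior spread, 1425262_at passed under the stricter filter (adjusted p 0.00255) and the filter on the second-highest array (0.0438), and 1425261_at under the filter on the second-highest array (0.0376). The mean of the 3 probe sets gave -0.88 ± 0.17 at 6 h (adjusted p 0.101).

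**Figure D1:**
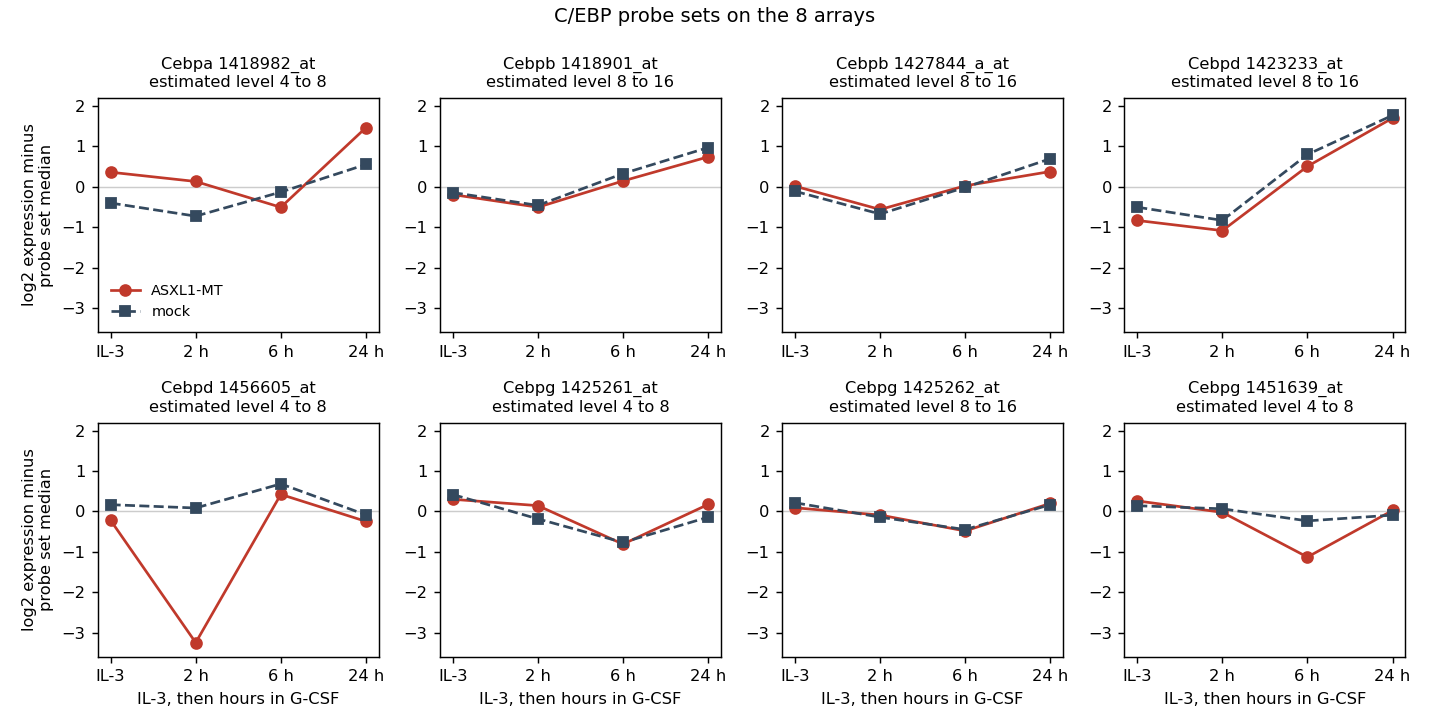
Log2 expression minus the probe set median (vertical axes) of the 8 C/EBP probe sets in IL-3 and after 2, 6 and 24 h of G-CSF (horizontal axes); each point is 1 array, with ASXL1-MT as red circles and mock as dark squares. Cebpd 1423233_at reaches 1.70 in ASXL1-MT cells and 1.77 in mock cells at 24 h, the Cebpg panels dip at 6 h, and the ASXL1-MT array at 2 h stands alone at -3.25 in Cebpd 1456605_at.

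Set against the table, 2 of 8 C/EBP probe sets passed at 24 h against IL-3, both higher, while 8.58% of all probe sets passed, 5.31% higher and 3.27% lower. At 6 h 1 of 8 passed, also higher, where 1.40% of all probe sets passed, 0.672% higher and 0.726% lower. At 2 h 0 of 8 passed and 0% of the table did in limma, while 1 of 8 and 2556 of the 37327 probe sets tested had an unadjusted p under 0.05. In the trended fit the members passing were 0 of 8 at 2 h, 3 of 8 at 6 h (2 higher, 1 lower) and 3 of 8 at 24 h (all higher). The table's shares were then 0.0321% at 2 h, 12.6% at 6 h (6.89% higher, 5.68% lower) and 18.5% at 24 h (10.0% higher, 8.48% lower). The median difference over the 8 probe sets was -0.30 at 2 h, -0.12 at 6 h and 0.31 at 24 h. At 24 h the median over all probe sets tested was 0.13, and -0.00404 after quantile normalization, so a log2 difference of about that size is shared by the table.

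**Figure D2:**
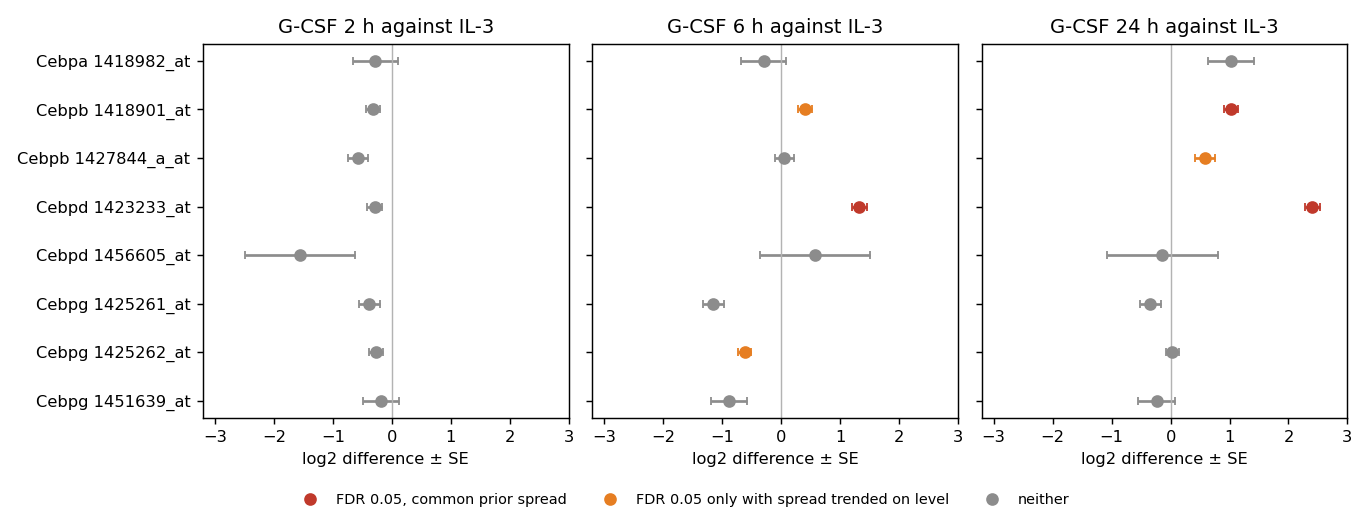
Fitted log2 differences (horizontal axes) from IL-3 after 2, 6 and 24 h of G-CSF for the 8 C/EBP probe sets, with bars of 1 SE from the fit on 8 arrays; red marks an FDR of 0.05 with the common prior spread, orange with the trended spread only. Cebpd 1423233_at stands at 1.32 at 6 h and 2.40 at 24 h, and Cebpb 1418901_at at 1.02 at 24 h.

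The steps between G-CSF times gave no call with the common prior spread. From 2 to 6 h, 0 of 8 C/EBP probe sets passed limma (0% of the table). At an unadjusted p under 0.05 there were 5 of 8, and 8081 of the 37327 probe sets tested. In the trended fit 4 passed (3 higher, 1 lower), against 11.2% of the table (6.21% higher, 5.00% lower). These were Cebpd 1423233_at, by 1.61 ± 0.08 (SE, trended p 0.00232), both probe sets of Cebpb, by 0.72 ± 0.08 (0.00741) and 0.62 ± 0.13 (0.0368), and Cebpg 1425262_at, by -0.35 ± 0.08 (0.0449). From 6 to 24 h, 0 of 8 passed (0% of the table), while 6 of 8 had an unadjusted p under 0.05, as did 6733 of the 37327 probe sets. With the trended spread 3 passed, all higher, against 7.36% of the table (3.65% higher, 3.72% lower). These were Cebpd 1423233_at, by 1.08 ± 0.08 (trended p 0.00696), Cebpb 1418901_at, by 0.62 ± 0.08 (0.017), and Cebpg 1425262_at, by 0.65 ± 0.08 (0.0143). Comparisons that share a time point share its arrays.

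**Figure D3:**
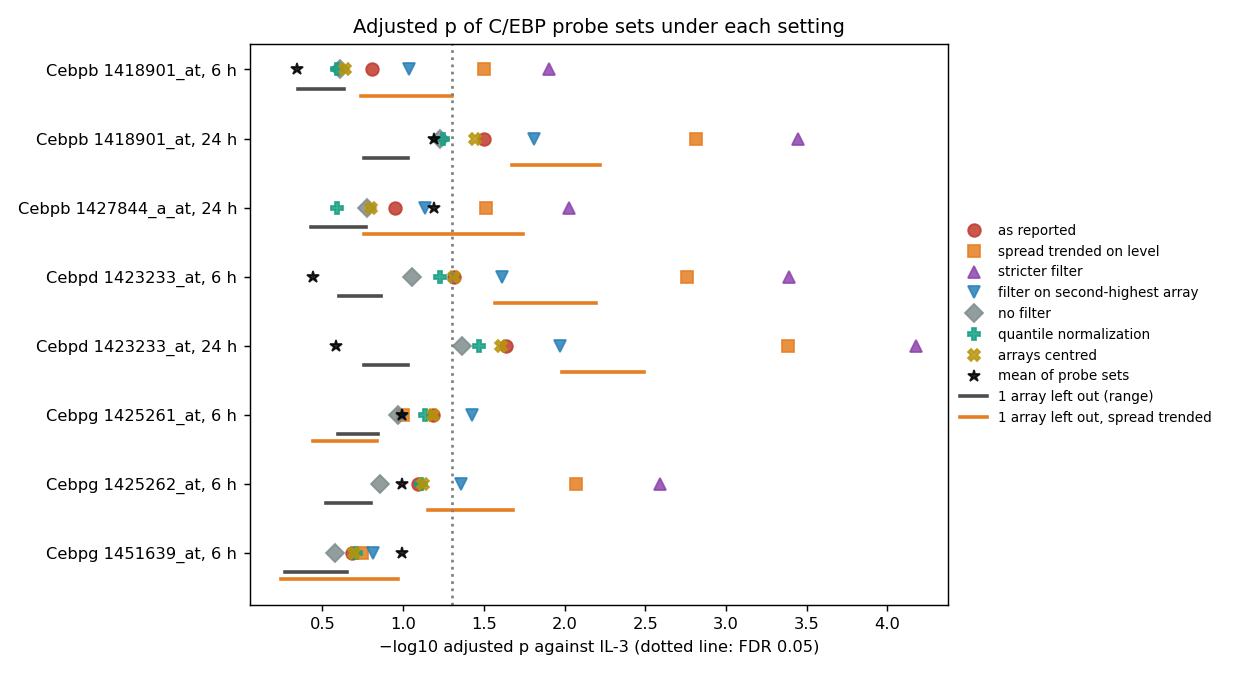
Minus log10 of the adjusted p against IL-3 (horizontal axis; dotted line at an FDR of 0.05) for the 8 C/EBP differences at 6 and 24 h with an unadjusted p under 0.05, under each setting, with lines spanning the 8 fits that leave out 1 array. Points right of the line passed; with 1 array left out, both Cebpd 1423233_at differences and that of Cebpb 1418901_at lie left of the line with the common prior spread and right of it with the trended spread.

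Calls depended on the spread model. With each of the 8 arrays left out in turn and the common prior spread, Cebpd 1423233_at at 24 h kept a difference of 2.29 to 2.52 but had an adjusted p of 0.0926 to 0.175. Cebpb 1418901_at kept 0.96 to 1.09 with the same range of adjusted p. With the trended spread, in fits chosen after the data were seen, both passed in 8 of 8 (adjusted p 0.00322 to 0.0103 for Cebpd and 0.00603 to 0.0211 for Cebpb). Cebpd at 6 h, at 1.26 to 1.38, also passed in 8 of 8 (0.00634 to 0.027). The fall of Cebpg 1425262_at at 6 h with the trended spread passed in 5 of 8.

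No C/EBP probe set passed for ASXL1-MT against mock. In limma 0 of 8 passed with either spread model (0% of the table). At an unadjusted p under 0.05 there were 0 of 8, and 2026 of the 37327 probe sets tested. The lowest adjusted p was 0.913 with the common prior spread and 0.747 with the trended spread. Cebpa was 0.76, 0.86 and 0.91 higher in ASXL1-MT cells in IL-3 and at 2 and 24 h, and at 6 h differed by -0.38. Over the 4 time points its fitted difference was 0.54 ± 0.27 (SE, trended p 0.823). It was 0.84 with either array at 6 h left out, the top of a range of 0.42 to 0.84 over the 8 fits that leave out 1 array.

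Cebpd 1423233_at had differences of -0.33, -0.25, -0.29 and -0.07 between ASXL1-MT and mock cells in IL-3 and at 2, 6 and 24 h. Its fitted difference was -0.24 ± 0.09 (SE, trended p 0.747). Cebpb 1418901_at had -0.05, -0.05, -0.18 and -0.23, and its fitted difference was -0.13 ± 0.08 (trended p 0.808). The other Cebpb probe set had -0.01 ± 0.12. Cebpd 1456605_at had -1.04 ± 0.66. It was -0.27 with either array at 2 h left out, where the fits that leave out 1 array ranged from -1.33 to -0.27. The 3 Cebpg probe sets had 0.12 ± 0.12, -0.02 ± 0.08 and -0.19 ± 0.22. At single time points, differences of at least 1 log2 unit either way, the size rule for 1 array a group, were found for 19.1% of the probe sets tested in IL-3, 19.8% at 2 h, 20.0% at 6 h and 19.3% at 24 h. Of the members 1 passed that size, Cebpd 1456605_at at 2 h with -3.33.

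The difference between the cultures at 24 h was also set against that at the other time points, with 2 residual degrees of freedom. In limma 0 of 8 passed with either spread model (0% of the table). At an unadjusted p under 0.05 there were 0 of 8, and 2276 of the 37327 probe sets tested. The lowest adjusted p was 0.959 with the common prior spread and 0.79 with the trended spread. Cebpa had 0.50 ± 0.67 (SE), Cebpb 1418901_at -0.14 ± 0.21 and Cebpd 1423233_at 0.22 ± 0.20.

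**Figure D4:**
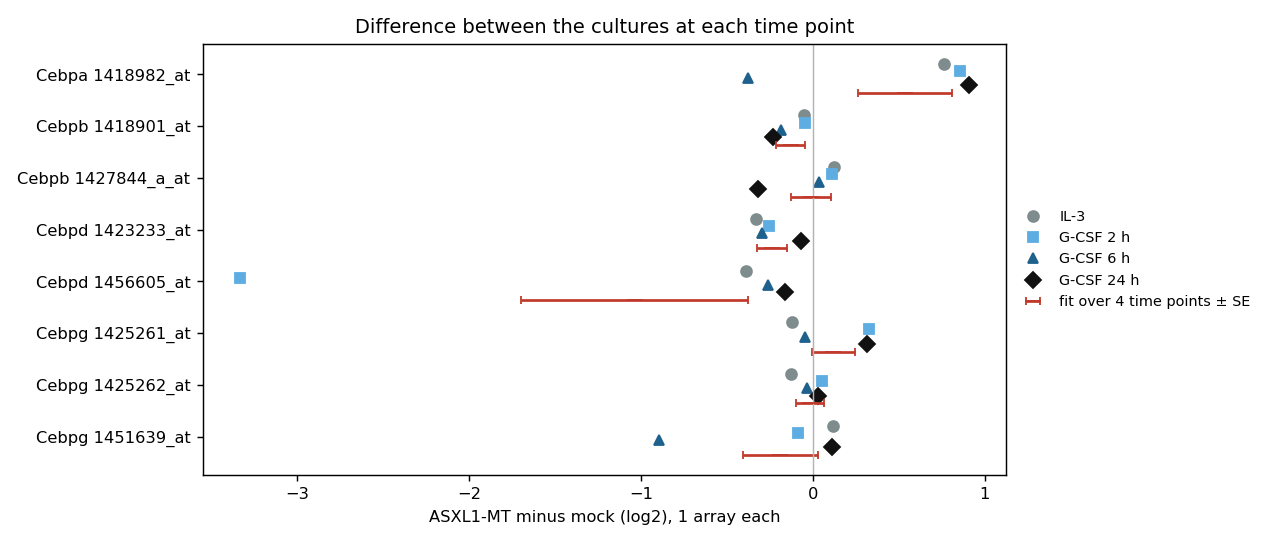
ASXL1-MT minus mock on the log2 scale (horizontal axis) for the 8 C/EBP probe sets, 1 symbol per time point, each from 1 array a culture, and red bars for the fitted difference over the 4 time points ± 1 SE. Cebpd 1423233_at lies between -0.33 and -0.07, Cebpb 1418901_at between -0.23 and -0.05, and Cebpd 1456605_at reaches -3.33 at 2 h.

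Across the 8 arrays, Cebpb 1418901_at and Cebpd 1423233_at ran together with a Pearson r of 0.98, as a description over arrays that share time points. The Cebpb pair had an r of 0.938, the 3 Cebpg probe sets 0.734 to 0.896 and the Cebpd pair 0.421. Cebpa had 0.628 with Cebpb 1418901_at and 0.58 with Cebpd 1423233_at. The standard deviation of Cebpd 1423233_at over the arrays, 1.16, exceeded that of 97.7% of probe sets at a level of 8 or above. That of Cebpb 1418901_at, 0.541, exceeded 87.8%, and that of Cebpg 1425262_at, 0.282, 54.4%. In the class at 4 to 8, Cebpa with 0.706 exceeded 45.3%.

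The patterns most like each member were ranked by Pearson r over the 8 arrays among 12150 bright probe sets with 1 symbol. For Cebpd they were Vsir, Arsb and Ppt1 (r = 0.998 to 0.996), with 1037 genes at 0.9 or above. For Cebpb, read at 1418901_at, they were Mllt10, Ncf1 and Cklf (0.993, 0.993 and 0.992), with 819 genes. The other Cebpb probe set, 1427844_a_at, was not ranked. Its level was equal after rounding (12.25 against 12.22), and the probe set name settled the choice. For Cebpg they were Mafk, Mdfic and Pik3cb (0.989 to 0.972), with 81 genes. For Cebpa they were Rbis, Gnl2 and Gas2 (0.964 to 0.955), with 17 genes.

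Genes linked to the family were described through 5 lists, each gene by its probe set with the highest estimated level. Within a level class that estimate is coarse and can depend on the lowest centred value of the probe set. The choice of probe set is therefore not independent of the changes described, in the lists or among all genes, which were read by the same rule. List counts under another choice of probe set are not given here. Over the 15862 genes tested, 6.01% were called higher and 4.12% lower at 24 h against IL-3 (12.4% and 10.9% with the trended spread), with a median difference of 0.10. At 6 h 0.933% were called higher and 1.03% lower. The lists were chosen with earlier results of these data known, so their counts beside the shares of all genes are description only. The list calls below depend on the settings as those of the members do. No probe set of the table passed at 6 h under quantile normalization or with no filter, and with the common prior spread none passed at 6 or 24 h in the 8 fits that leave out 1 array or with only the 4 arrays compared. Of the partners and protein regulators of C/EBP factors, 2 of 17 rose and none fell, with a median of 0.25 (0.08 under quantile normalization). They were Fos, a zipper partner, by 2.38 ± 0.16 (SE, adjusted p 0.0248), and Junb, its AP-1 relative, by 1.31 ± 0.12 (0.0278). Fos read -1.51, -0.73, 0.56 and 0.95 in ASXL1-MT cells from IL-3 to 24 h, and -1.02, -0.56, 1.20 and 1.28 in mock cells. The trended fit had 4 rises and 1 fall. At 6 h Fos rose by 2.15, and Atf4, the stress factor that dimerises with C/EBP proteins, and Trib3, a stress-induced pseudokinase, fell by 2.05 and 1.37 (adjusted p 0.0487 for each of the 3), genes named after their values were seen. None of the 17 passed at 6 h under quantile normalization.

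Of the upstream signalling and transcription factors, 5 of 23 rose and 1 fell at 24 h, with a median of 0.12 (0.02 under quantile normalization, 0.03 with arrays centred). Socs3, the feedback inhibitor of G-CSF receptor signalling, rose by 3.07 ± 0.32 (SE, adjusted p 0.0294). Csf3r, the G-CSF receptor, rose by 2.16 ± 0.13 (0.0236) and Stat3, its signal transducer, by 1.99 ± 0.12 (0.0236). Csf3r read -0.75, -0.77, 0.34 and 1.55 in ASXL1-MT cells, and -0.34, -0.42, 0.61 and 1.68 in mock cells. Like Cebpd 1423233_at it was higher at 6 h and highest at 24 h. Such a course was common, with 1037 genes at an r of 0.9 or above to Cebpd, and a link was not tested. Gata2, a factor of progenitors and mast cells, fell by 1.31 ± 0.14 (0.0297). Spi1 (PU.1) and Gfi1, outside the naming rule and named to complete the count, rose by 1.45 and 1.39. The trended fit had 8 rises and 1 fall. At 6 h Stat3 and Gata1, named after their values were seen, rose by 1.69 and 1.14 (adjusted p 0.0487 and 0.0491). None of the 23 passed at 6 h under quantile normalization, and with arrays centred 1 rose.

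The next list held granulocyte genes known to depend on C/EBP factors in mouse. Of 28 listed, 25 were on the array and 24 were tested, and 16 rose and none fell at 24 h, with a median of 2.13. The largest rises were Prg2, eosinophil major basic protein, by 6.51 ± 0.48 (SE, adjusted p 0.0255), Ngp, neutrophilic granule protein, by 4.95 ± 0.27 (0.0236) and Lcn2, the iron-sequestering lipocalin of neutrophil granules, by 4.33 ± 0.18 (0.0224). Ngp read -1.17, -1.22, -0.96 and 4.19 in ASXL1-MT cells, and -0.04, 0.04, 0.05 and 4.51 in mock cells, and was high at 24 h only. At 6 h Lcn2 alone passed, by 1.73 ± 0.18 (adjusted p 0.0487), a gene outside the naming rule at that time. The trended fit had 19 rises and no fall at 24 h. Under quantile normalization 11 of 24 rose at 24 h, and none passed at 6 h.

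Eosinophil, basophil and mast cell markers moved with this list. Of 7 such markers 6 were tested, and at 24 h Prg2, Prg3, Epx, Cpa3 and Mcpt8 rose and Gata2 fell. Prg2 and Epx stand in both lists. Of the 10 myeloid progenitor markers tested 7 rose, and of the 3 monocyte markers Csf1r and Cd68 rose. Under quantile normalization 1 of the 3 monocyte markers and 4 of the 6 eosinophil, basophil and mast cell markers rose. Of 4 erythroid markers Klf1 fell by 1.12 (adjusted p 0.034), a call lost with the trended spread (0.0733), and 0 of 3 fibroblast and 0 of 1 lymphoid markers passed. In bulk RNA, more cells of a type and more RNA per cell cannot be told apart, and the part of such cells in the C/EBP values was not tested. The values are centred, so no summed marker level could be given.

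Of the acute phase genes, 4 of 9 tested (12 listed) rose at 24 h and none fell, with a median of 2.15. They were Lrg1, a secreted glycoprotein, by 5.25 ± 0.25 (SE, adjusted p 0.0224), Hp, haptoglobin, by 4.92 ± 0.14 (0.0224), Lbp, which binds bacterial lipopolysaccharide, by 4.88 ± 0.16 (0.0224), and Lcn2, shared with the granulocyte list. Hp read -1.26, -1.11, 0.80 and 3.53 in ASXL1-MT cells, and -1.22, -0.80, 1.14 and 3.83 in mock cells. At 6 h Hp, Lcn2 and Lbp passed, by 2.21, 1.73 and 1.84 (adjusted p 0.0487 each), and none of the 9 passed under quantile normalization. The list's median at 6 h was -0.11, against 0.11 over all genes. The trended fit had 5 rises at 24 h. Lcn2, Hp and Lbp, picked here because they passed at 6 h, were higher at 6 h and highest at 24 h in both cultures, as was Cebpd 1423233_at. Of the 9 tested, 4 lay above IL-3 at 6 h and 5 below. The course of Cebpd was shared by 1037 genes at an r of 0.9 or above, and a link to the acute phase genes was not tested.

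Of the cell cycle genes tied to growth arrest by C/EBP alpha, 5 of 18 rose and 1 fell at 24 h, with a median of 0.29. Under quantile normalization and with arrays centred 3 rose and 1 fell, with medians of 0.13 and 0.21. E2f2, a factor of the G1 to S step, rose by 2.07 ± 0.14 (SE, adjusted p 0.0248), Cdkn1b, the inhibitor p27, by 1.57 ± 0.18 (0.0316) and Cdk6, a G1 kinase, by 1.21 ± 0.11 (0.0271). Ccnd2, cyclin D2, fell by 1.24 ± 0.12 (0.0277). Rbl1 and Rbl2, relatives of the retinoblastoma protein named to complete the count, rose by 0.66 and 0.85. The trended fit had 8 rises and 3 falls. At 6 h Myc and Ccnd2, named after their values were seen, fell by 1.25 and 1.43 (adjusted p 0.0487 each), and none of the 18 passed under quantile normalization. For ASXL1-MT against mock no gene of the 5 lists passed with either spread model, where 0% of all genes did.

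**Figure D5:**
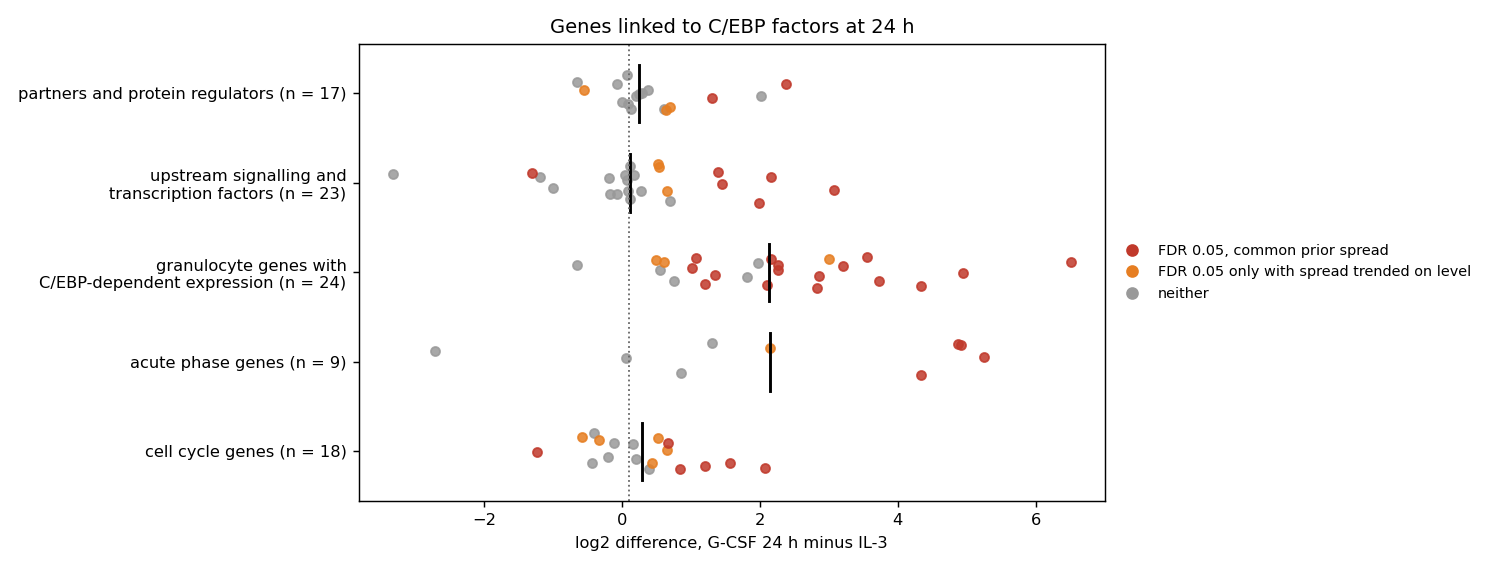
Log2 difference of G-CSF at 24 h against IL-3 (horizontal axis) for every tested gene of the 5 lists, 1 point a gene; red marks an FDR of 0.05 with the common prior spread, orange with the trended spread only. Black bars are list medians, 2.13 for granulocyte genes and 2.15 for acute phase genes, and the dotted line is the median of all genes, 0.10.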

How the data were processed

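Affymetrix arrays were hybridised with RNA of 8 conditions, 1 array each. The authors captured probe brightness with MAS 5.0, per the labels; RMA is listed, with no version, in the submitters' processing notes. Deposited values were read as log2 expression from which the probe set's median over the arrays was taken away (medians within 5e-07 of 0). Base 2 follows from RMA, and a natural log was not excluded. How arrays were scaled and centred is not stated here. The design text names the 430A array, while the table holds 45037 probe sets, and gives 5 µg of RNA where the protocol gives 3 µg.

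The annotation gave 1 gene symbol for 34945 probe sets, several for 932 and none for 9160. Levels before centring were estimated from rounding steps (on 8000 simulated probe sets, 96.8% fell on the correct side of 4 and 97.5% of 8). The design fixed a filter on dim probe sets without a value; the level of 4 was chosen after the data, and the C/EBP results under 4 filters, had been seen. It was taken because the rounding measures that octave edge, and other filters are given as alternatives. limma 3.58.1 in R 4.3.3 (lmFit, eBayes; prior worth 1.08 degrees of freedom), tested on simulated data, was fitted with time point and vector as terms. Tables used Python 3.11.15. The number of arrays limits the precision. Members and lists were chosen with earlier results of these data known.

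Named genes were all members, the 3 called list genes with the largest rise and fall per list at 24 h and for the vector, and the 3 nearest patterns per gene. Alternatives were no filter, a filter at the 70th percentile of the level, quantile normalization, centred arrays, a trended spread, gene means, each array left out and the 4 arrays compared alone. A filter on the second-highest array, leaving out arrays with the trended spread, and the motifs TGACGC and TATAAA were added after seeing the data.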

Additional observations from a re-analysis of the deposited data

Results flagged for a closer look

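The ASXL1-MT minus mock differences of each probe set at the 4 time points were screened for 1 value far from the other 3. They are not replicate samples, and chance marks about 1 in 20 such groups. Cebpa 1418982_at stood apart at 6 h, where ASXL1-MT minus mock was -0.3768, against 0.76, 0.86 and 0.91 in IL-3 and at 2 and 24 h. Cebpd 1456605_at stood apart at 2 h, where it was -3.334, against values of -0.39, -0.26 and -0.16 in IL-3 and at 6 and 24 h. The brighter Cebpd probe set, 1423233_at, differed by -0.25 at 2 h.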

How the results depend on the processing

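No called C/EBP difference changed sign under any alternative run, while 39 of 1252 results of single probe sets, all without a call, did. At 6 h against IL-3 the number of C/EBP probe sets called, 1 as reported, was 0 with no filter, under quantile normalization, with gene means and with the 4 arrays compared alone, and 3 under the stricter filter (4 tested), the filter on the second-highest array and the trended spread. At 24 h it was 2 as reported, 1 with no filter and under quantile normalization, and 0 with gene means and with the 4 arrays compared alone. From 2 to 6 h it was 0 as reported and 2 under the filter on the second-highest array. It was 4 under the stricter filter, where 4 were tested, and 4 with the trended spread. From 6 to 24 h it was 0 as reported, 4 under the stricter filter (4 tested) and 3 with the trended spread. Leaving out 1 array gave 0 in each comparison with the common prior spread. With the trended spread it gave 1 to 3 at 6 h, 2 to 3 at 24 h, 1 to 3 from 2 to 6 h and 0 to 3 from 6 to 24 h. The call counts at 2 h, for ASXL1-MT against mock and for the 24 h departure were 0 under all alternatives run; the 24 h departure has no value once a 24 h array is left out. Over the whole table at 24 h 3202 probe sets were called as reported, 477 with no filter, 7328 of 13512 under the stricter filter, 5526 of 30135 under the filter on the second-highest array, 2077 under quantile normalization, 6897 with the trended spread and 861 of 18193 genes with gene means. It was 0 with the 4 arrays compared alone (7401 at an unadjusted p under 0.05) and in the 8 fits that leave out 1 array (7239 to 9729), and 3112 to 6156 in those with the trended spread. Higher against lower calls at 24 h were 1982 and 1220 as reported, 897 and 1180 under quantile normalization and 1631 and 1595 with arrays centred. At 6 h 522 were called as reported, 251 higher and 271 lower, and 670 with arrays centred, 263 higher and 407 lower. At 6 h 0 were called with no filter, under quantile normalization, with gene means and with the 4 arrays compared alone (8479, 8495, 3799 and 5904 at an unadjusted p under 0.05), and in the 8 fits that leave out 1 array (5755 to 7894). In contrast 5695 of 13512 were called under the stricter filter, 2739 of 30135 under the filter on the second-highest array and 4690 with the trended spread (1267 to 3792 with 1 array left out). From 2 to 6 h, 0 of all probe sets were called as reported. In that step 5458 of 13512 were called under the stricter filter and 1769 of 30135 under the filter on the second-highest array. With the trended spread 4182 of 37327 were. From 6 to 24 h the calls were 0 as reported, then 4341 of 13512, 56 of 30135 and 2748 of 37327 in the same order. No paired analysis was possible because the labels number no replicates to use as a block. The vector term of the fit already sets each time comparison within its culture. Cebpa, Cebpd 1456605_at and 2 Cebpg probe sets lay at 4 to 8, where the spread over arrays is larger. Cebpg 1451639_at, with an estimate of 7.97, lay at the edge of that class.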
